A study of Mus musculus with 12 samples.

Results

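The genes described here are 50 regulators of the cell division cycle, chosen by a list of symbols that covers cyclins, cyclin-dependent kinases, the phosphatases and kinases that act on them, polo and aurora kinases, the spindle checkpoint, the anaphase-promoting complex and the inhibitors of each step. All 50 were present in both tables of mouse 2-cell embryos, among 17866 genes listed in the knockdown table and 19390 in the immunoprecipitation table. The list names genes by function and uses no measured value, though it was chosen with earlier results of these data known.

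Entry into mitosis depends on a complex of cyclin B with the kinase Cdk1, which is held inactive by the kinases Wee1 and Pkmyt1 and is released by the Cdc25 phosphatases. Exit depends on the anaphase-promoting complex (APC/C), a ubiquitin ligase that is switched on by Cdc20 or Fzr1, held back by the spindle checkpoint until chromosomes are attached, and directed at cyclin B and at securin. The oocyte stores mRNA for many of these proteins, since egg maturation and the first cleavage take place with little new transcription, and at the 2-cell stage the stored mRNA is cleared while the embryo's genome is switched on.

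The knockdown experiment had 2 control libraries (genotype label WT) and 2 knockdown libraries (Eif1ad3_KD), all from 2-cell embryos, which the series design places in the CF1 stock. The design states that 1-cell embryos received RfxCas13d mRNA, an RNA-cutting enzyme, alone (control) or together with guide RNA (knockdown), whereas the samples' treatment text states morpholino oligos and Cas13d protein given to oocytes, and these accounts were not reconciled here. In the immunoprecipitation experiment mRNA encoding Eif1ad3 with a His tag was given to zygotes at 200 ng/uL (Eif1ad3_OE), and RNA from lysates of 200 cells per replicate was recovered on beads with an anti-His antibody (2 His libraries) or with IgG as the negative control (2 IgG libraries), so both groups carried the injected mRNA. The age of the females and the number of embryos per knockdown library are not given in the sources used here. Replicates carry only the letters A and B, and nothing states that they came from separate collections, so p-values measure the spread between these libraries, which may be technical.

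The knockdown experiment was read at 18173916 to 27902514 reads per library and the immunoprecipitation at 4678563 to 8364126, so that 3 reads equalled 0.108 to 0.165 and 0.359 to 0.641 CPM (counts scaled by the authors to a common library total). Across genes, Pearson's r of log2(CPM + 1) between replicates was 0.971 for control, 0.932 for knockdown, 0.911 for His and 0.564 for IgG, and the IgG pair stood apart from the others. Eif1ad3, the targeted gene, had 839 and 663 CPM in control and 277 and 377 CPM in knockdown (replicate A, then replicate B, as in every pair of values below), lower in both knockdown libraries (log2 fold change -1.21, adjusted p = 0.859). Markers of oocyte and maternal RNA (10 of 10 listed, none at 0) summed to 6823 and 6683 CPM in the controls, 13541 in knockdown replicate A and 6785 in knockdown replicate B. Markers of 2-cell genome activation (10 of 10 listed) summed to 4116 and 4013 CPM in controls and 3065 and 3236 CPM in knockdown, with Dux and Duxf3 at 0 in control A and knockdown B. Markers of the other cell types were low in the knockdown table: cumulus and granulosa cells at 5.94 to 13.8 CPM (4 of 10 listed), later embryo lineages at 54.0 to 89.9 CPM (8 of 10 listed), and sperm and spermatid at 1.65 to 3.83 CPM (3 of 6 listed).

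Many genes that act in G2 and mitosis carry a CCAAT box, the letters read by the factor NF-Y, and a cell cycle homology region with the letters TTTGAA close to their start sites. Promoters of 39 of the 50 genes were found in a RefSeq table (GRCm38.p6), some with more than 1 start; those not matched were Rb1, Ccnd1, Ccnd2, Ccna2, Ccne2, Cdc25c, Cdc23, Wee1, Pkmyt1, Mos and Aurkb. The 250 bases before each start were searched on both strands, with the motifs counted separately. CCAAT or its reverse complement ATTGG lay in 24 of 44 promoters of these genes (54.5%) and in 33.9% of all 32851 promoters of the same length. TTTGAA or its reverse complement TTCAAA lay in 8 of 44 (18.2%) and in 15.99% of all promoters. The 4 promoters below are shown because their genes are central to the knockdown results, 3 with lower and 1 with higher values in both knockdown libraries, and they were chosen after those values were seen. They lie before Ccnb1 at chr13:100786487-100786736 (minus strand), Cdk1 at chr10:69352913-69353162 (minus strand), Cdc20 at chr4:118437344-118437593 (minus strand) and Mad2l1 at chr6:66534971-66535220 (plus strand). Each is written 5′ to 3′ towards the start site, with capitals on every match to either motif.
Ccnb1: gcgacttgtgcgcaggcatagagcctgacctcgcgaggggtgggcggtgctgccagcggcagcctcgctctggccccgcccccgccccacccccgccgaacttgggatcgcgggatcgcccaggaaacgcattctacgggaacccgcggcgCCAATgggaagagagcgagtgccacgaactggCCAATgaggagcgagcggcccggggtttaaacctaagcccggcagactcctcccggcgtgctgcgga
Cdk1: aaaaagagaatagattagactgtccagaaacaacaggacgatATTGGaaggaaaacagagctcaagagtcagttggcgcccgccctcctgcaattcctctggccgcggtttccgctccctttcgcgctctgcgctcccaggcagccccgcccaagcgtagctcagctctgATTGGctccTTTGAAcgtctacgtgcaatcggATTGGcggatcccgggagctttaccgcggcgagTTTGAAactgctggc
Cdc20: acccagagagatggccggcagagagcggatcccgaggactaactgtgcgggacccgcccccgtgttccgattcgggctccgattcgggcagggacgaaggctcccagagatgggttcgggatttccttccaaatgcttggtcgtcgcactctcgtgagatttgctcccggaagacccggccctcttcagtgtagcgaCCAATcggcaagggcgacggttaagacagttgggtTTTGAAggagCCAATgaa
Mad2l1: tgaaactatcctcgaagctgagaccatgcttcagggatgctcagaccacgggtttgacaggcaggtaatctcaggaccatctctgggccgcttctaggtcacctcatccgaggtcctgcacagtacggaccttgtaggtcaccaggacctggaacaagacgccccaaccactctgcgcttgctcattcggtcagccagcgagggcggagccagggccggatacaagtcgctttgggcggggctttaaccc
The Ccnb1 window held 2 CCAAT matches, beginning 99 and 67 bases before the start site, and no TTTGAA. The Cdk1 window held 3 CCAAT matches, at 208, 80 and 48 bases, and 2 TTTGAA matches, at 71 and 15 bases. In the Cdc20 window the 2 CCAAT matches began at 53 and 8 bases and the single TTTGAA match at 18 bases. The Mad2l1 window held neither run of letters. A match describes these letters in this window and is not a measured site of binding.

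The first comparison asked how RNA of cell cycle genes differed between knockdown and control 2-cell embryos. Of the 50 genes, 47 passed the filter of at least 1 CPM in at least 2 libraries; Ccnd1, Ccnd2 and E2f3 did not. None passed limma at an adjusted p of 0.05 (smallest 0.859), and the share called among all 13332 genes tested was 0%. At an unadjusted p under 0.05 there were 4 of the 47 (Cdc20, Anapc10, Ccne2 and Ccne1), beside 5.45% of all genes. The log2 fold change was below 0 in 29 genes (61.7%, beside 48.7% of all genes) and above 0 in 18, with a median of -0.16 beside 0.02 over all genes tested. In 12 genes both knockdown libraries were below both controls (18.4% of all genes) and in 6 both were above (18.1%), together 38.3% of the 47 beside 36.5% of all genes, which is close to the background. In these libraries, fewer cells in a given phase and less RNA per cell cannot be told apart.

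The 2 knockdown libraries differed from each other more than the controls did, and this bears on every value that follows. The median SD between replicates, on the log2 scale, was 0.51 for the 47 genes in knockdown and 0.19 in control (0.49 and 0.24 over all genes). Against the control mean, the median of the 47 genes was 0.02 in knockdown replicate A and -0.43 in knockdown replicate B (0.14 and -0.17 over all genes). Without knockdown replicate A, 16 of the 47 genes passed limma (34.0%; 6 higher and 10 lower) beside 15.1% of all genes; without knockdown replicate B 3 passed (6.38%) beside 3.23%, and the median turned from -0.16 to 0.02. Of the 47 log2 fold changes, 39 moved by over 1.5 times or changed sign when 1 of the 4 libraries was left out, 23 of them changing sign. In the fits without a knockdown library the lone one was assumed to vary as the controls do. The edgeR and DESeq2 tests on the recovered reads called 0 of the 47 with all 4 libraries, each with 3 at an unadjusted p under 0.05.

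**Figure D1:**
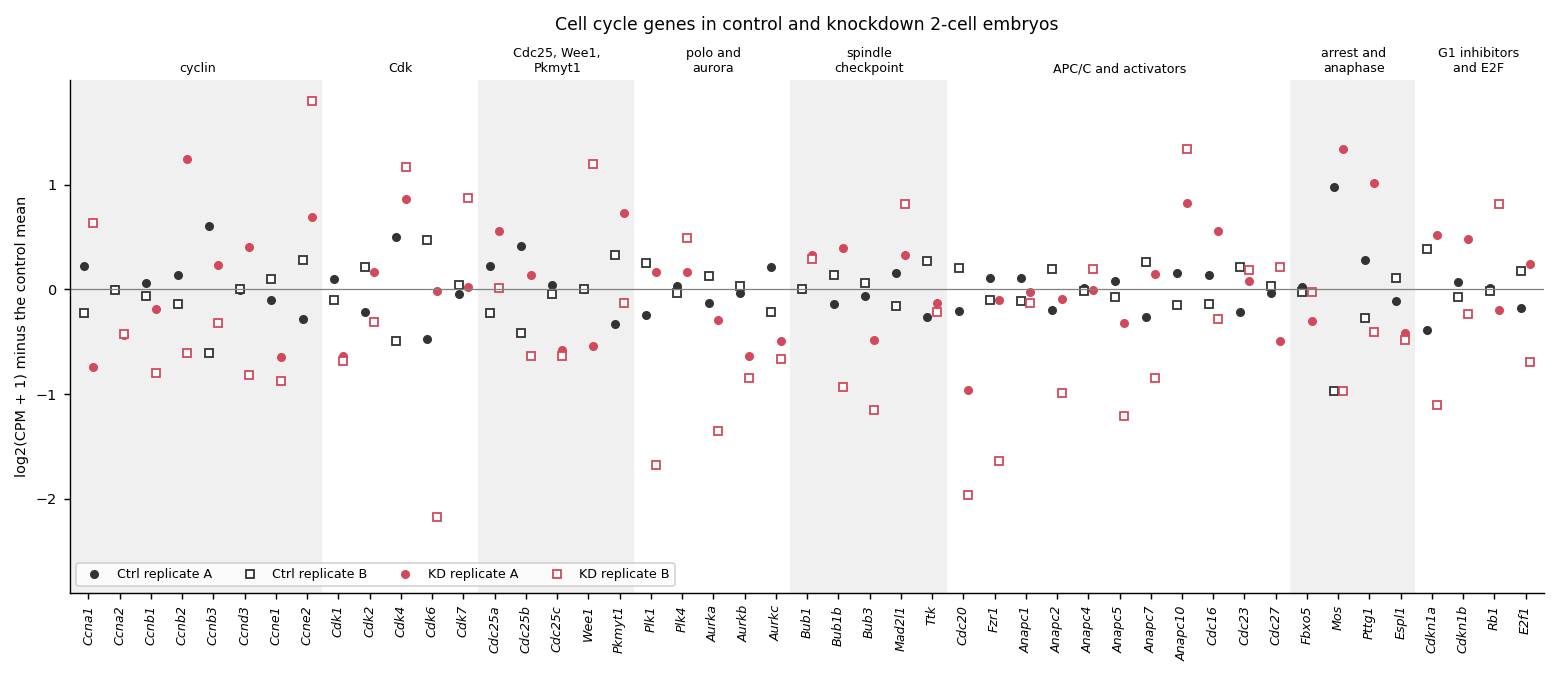
Values of 47 cell cycle genes in the 2 control (black) and 2 knockdown (red) libraries, as log2(CPM + 1) minus the gene's control mean (vertical axis), by gene and role (horizontal axis); filled circles are replicate A and open squares replicate B. Cdc20, Cdk1 and Aurkb lie below the controls in both knockdown libraries, and Pttg1, Ccnb2 and Wee1 have one knockdown library on each side of both controls.

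Among the genes of mitotic entry, cyclin B1 and its kinase were lower in both knockdown libraries, though by amounts that did not pass the test. Ccnb1, the activating subunit of Cdk1 in mitosis, was at 4477 and 4116 CPM in control and 3775 and 2461 CPM in knockdown (72.6% of the control mean; log2 fold change -0.49, SE 0.33). Cdk1, the kinase that drives entry, was at 1234 and 1072 CPM in control and 739 and 716 CPM in knockdown (63.1%; -0.66, SE 0.30, unadjusted p = 0.0554). Without knockdown A and without knockdown B, Ccnb1 was at -0.80 and -0.19 on the log2 scale and Cdk1 at -0.68 and -0.64. The Cdk1 values were close within each group and far apart between groups, while for Ccnb1 knockdown B lay well below knockdown A. A pseudogene copy, Ccnb1-ps, was listed at 13.5 to 25.9 CPM in the 4 libraries, and reads shared between the copies cannot be told apart here. Ccna2, the cyclin of S phase and of early mitosis, was at 792 and 786 CPM in control and 584 and 587 CPM in knockdown (74.2%; -0.43, SE 0.29), again with no overlap between the groups. Ccnb2, a second mitotic cyclin, did not follow Ccnb1, with 88.2 and 72.9 CPM in control and 191 and 52.4 CPM in knockdown, so that knockdown A was above and knockdown B below both controls. The germline cyclins Ccna1 (9.12 and 6.39 CPM in control, 4.16 and 12.4 CPM in knockdown) and Ccnb3 (17.03 and 6.79 CPM in control, 12.9 and 8.47 CPM in knockdown) overlapped between groups.

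The regulators of Cdk1 phosphorylation split. Cdc25c, which removes the inhibitory phosphates from Cdk1, was at 263 and 247 CPM in control and 170.3 and 164 CPM in knockdown (65.4%; -0.61, SE 0.31), with every knockdown value below every control value. Cdc25b, the phosphatase that starts meiotic resumption in mouse oocytes, overlapped at 25.5 and 13.9 CPM in control and 20.8 and 11.8 CPM in knockdown (-0.25, SE 0.53), as did Cdc25a, which also acts at S phase entry, at 13.5 and 9.56 CPM in control and 17.2 and 11.5 CPM in knockdown. Wee1, the nuclear kinase that inhibits Cdk1, was at 30.1 and 30.1 CPM in control, 20.4 CPM in knockdown A and 70.5 CPM in knockdown B. The controls for Wee1 were all but equal and those of knockdown stood on either side of them, giving a log2 fold change of 0.33 with an SE of 0.59. Pkmyt1, its membrane-bound relative, was at 4.80 and 8.15 CPM in control and 11.1 and 5.67 CPM in knockdown. Cdk7, which phosphorylates the activating site of Cdk1, was at 112 and 119 CPM in control and 117 and 212 CPM in knockdown, and only knockdown B departed from the controls.

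Of the 5 polo and aurora kinases, 4 had a log2 fold change below 0, 3 of them with no overlap, and the median of the 5 log2 fold changes was -0.74. Over all genes 18.4% were lower with no overlap and 48.7% had a value below 0. With 5 genes this group was not tested against them. Aurka, the centrosome and spindle kinase, was at 434 and 520.3 CPM in control and 387 and 186 CPM in knockdown (60.02%; -0.82, SE 0.40, unadjusted p = 0.0759). Aurkb, the kinase of the chromosomal passenger complex, was at 42.5 and 44.5 CPM in control and 27.7 and 23.7 CPM in knockdown (59.1%; -0.74, SE 0.40). Aurkc, which takes its place in germ cells and early embryos, was at 131 and 96.9 CPM in control and 79.8 and 70.8 CPM in knockdown (66.1%; -0.58, SE 0.36). All 3 aurora kinases were thus below both controls in both knockdown libraries, with adjusted p = 0.859 for each. Aurka rested more on knockdown B, at -1.35 and -0.29 without knockdown A and without knockdown B, than Aurkb (-0.85 and -0.63) or Aurkc (-0.66 and -0.49). A copy named Aurkc-ps had at most 1.25 CPM in these libraries. Plk1, which activates Cdc25 and marks the APC/C inhibitor Fbxo5 for destruction, was at 66.9 and 94.7 CPM in control, 89.6 CPM in knockdown A and 24.2 CPM in knockdown B. Its log2 fold change of -0.75 (SE 0.60) rested on knockdown B: without that library it was 0.17. Plk4, the kinase of centriole duplication, went the other way, at 202 and 192 CPM in control and 222 and 278 CPM in knockdown (127%; 0.33, SE 0.32; 0.49 and 0.17 without knockdown A and without knockdown B).

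Spindle checkpoint genes did not share a direction. Bub3, the adaptor that brings the checkpoint proteins to kinetochores, was at 128 and 139 CPM in control and 95.2 and 59.4 CPM in knockdown (57.9%; -0.82, SE 0.38, unadjusted p = 0.0609). Mad2l1, the Mad2 protein that binds Cdc20, was at 847 and 684 CPM in control and 957 and 1338 CPM in knockdown (149.97%; 0.57, SE 0.32), and Bub1, a kinetochore kinase, at 126 and 126 CPM in control and 158 and 154 CPM in knockdown (124%; 0.31, SE 0.32). Thus Bub3 was lower and Mad2l1 and Bub1 were higher in both knockdown libraries than in either control. Without knockdown A and without knockdown B, Bub3 was at -1.15 and -0.48 and Mad2l1 at 0.81 and 0.33 on the log2 scale. Bub1b, the BubR1 subunit of the checkpoint complex, was at 35.2 and 42.7 CPM in control, with knockdown A at 51.2 CPM above both and knockdown B at 19.8 CPM below both. Ttk, the kinase that starts the signal, overlapped at 136 and 197 CPM in control and 149 and 141 CPM in knockdown.

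Cdc20, which activates the APC/C at anaphase and is the checkpoint's target, had the lowest log2 fold change of the 47 genes. It was at 302 and 403 CPM in control and 178 and 88.7 CPM in knockdown. Both knockdown values lay below both controls, with means of 352 ± 71.6 CPM and 133 ± 63.4 CPM (SD, n = 2 each), or 37.9% of control. On the log2 scale the difference was -1.46 (SE 0.41, unadjusted p = 0.00738, adjusted p = 0.859), and leaving out a library in turn moved it between -1.96 and -0.96. Fzr1, the activator used in late mitosis and G1, was at 24.9 and 21.4 CPM in control and 21.4 and 6.71 CPM in knockdown (-0.87, SE 0.59), where knockdown A matched a control and knockdown B was low.

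Among the 9 subunits of the APC/C itself, 4 had a log2 fold change above 0 and 5 below (51.3% and 48.7% of all genes), and a pair stood on opposite sides. Anapc5, a subunit of the scaffold, was at 156 and 140.1 CPM in control and 118 and 63.6 CPM in knockdown (61.5%; -0.76, SE 0.40). Anapc10, which helps the activators to bind substrates, was at 52.3 and 42.1 CPM in control and 84.1 and 120.1 CPM in knockdown (216%; 1.08, SE 0.38, unadjusted p = 0.0218). RNA of the 2 subunits of a single complex was thus lower for one and higher for the other, in both knockdown libraries. Without knockdown A and without knockdown B the values were -1.21 and -0.32 for Anapc5 and 1.34 and 0.83 for Anapc10. The scaffold subunits Anapc1 (153 and 132 CPM in control, 140.2 and 129.97 CPM in knockdown) and Anapc4 (71.5 and 70.4 CPM in control, 70.5 and 81.1 CPM in knockdown) overlapped, as did the cullin subunit Anapc2 (13.04 and 17.4 CPM in control, 14.1 and 7.10 CPM in knockdown). The subunits with tetratricopeptide repeats, Cdc27, Cdc16, Cdc23 and Anapc7, had log2 fold changes from -0.35 to 0.14 and overlapped between groups. Of these Cdc27 was at 406 and 427 CPM in control, 295 CPM in knockdown A and 483 CPM in knockdown B, 1 on each side.

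The inhibitor Fbxo5 (Emi1), which keeps the APC/C off in interphase, overlapped at 315 and 304 CPM in control and 250.2 and 305 CPM in knockdown (-0.16, SE 0.31). Mos, the kinase that arrests the egg at meiosis II, was uneven within both groups, at 15.6 and 3.29 CPM in control and 20.3 and 3.30 CPM in knockdown, with the A libraries high and the B libraries low (0.18, SE 0.91). Pttg1, securin, the inhibitor of separase, was at 2275 and 1549 CPM in control, 3785 CPM in knockdown A and 1413 CPM in knockdown B. Knockdown A was the highest and knockdown B the lowest of the 4 libraries, and the log2 fold change of 0.30 had an SE of 0.48. Espl1, separase, which opens the cohesin ring, was at 60.7 and 70.4 CPM in control and 48.7 and 46.6 CPM in knockdown (72.7%; -0.45, SE 0.37), below both controls in both.

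The 2 cyclin E genes, partners of Cdk2 at the start of S phase, stood on opposite sides. Ccne1 was at 374 and 429 CPM in control and 256 and 219 CPM in knockdown (59.03%; -0.76, SE 0.31, unadjusted p = 0.0413). Ccne2 was at 52.2 and 77.3 CPM in control and 103 and 223 CPM in knockdown (252%; 1.24, SE 0.46, unadjusted p = 0.0255), the highest fold change of the 47 genes. Neither gene's groups overlapped, and Ccne2 was at 1.80 and 0.69 on the log2 scale without knockdown A and without knockdown B. Cdk2 itself overlapped at 26.3 and 35.6 CPM in control and 34.5 and 24.5 CPM in knockdown, and Cdk4, a kinase of the D-type cyclins, was higher in both knockdown libraries at 16.8 and 7.95 CPM in control and 21.97 and 27.3 CPM in knockdown (1.01, SE 0.52; 0.52 without control B). Its relative Cdk6 was at 2.96 and 6.63 CPM in control, 4.44 CPM in knockdown A and 0.220 CPM in knockdown B. The D-type cyclins were sparse: Ccnd3 lay at 1.16 to 4.05 CPM, and Ccnd1 and Ccnd2 at 0 to 2.53 CPM. Rb1, the retinoblastoma protein that restrains E2F, was at 155 and 151 CPM in control and 133 and 270.4 CPM in knockdown, with knockdown A below and knockdown B above both controls. E2f1, which drives S phase genes, overlapped at 31.4 and 40.6 CPM in control and 42.4 and 21.7 CPM in knockdown, and the Cdk inhibitors Cdkn1a (p21) and Cdkn1b (p27) had 0.935 to 9.39 CPM. E2f3 had 0 to 26 reads per library, and in this table those reads equalled those of Rpl7a-ps3 in every library.

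**Figure D2:**
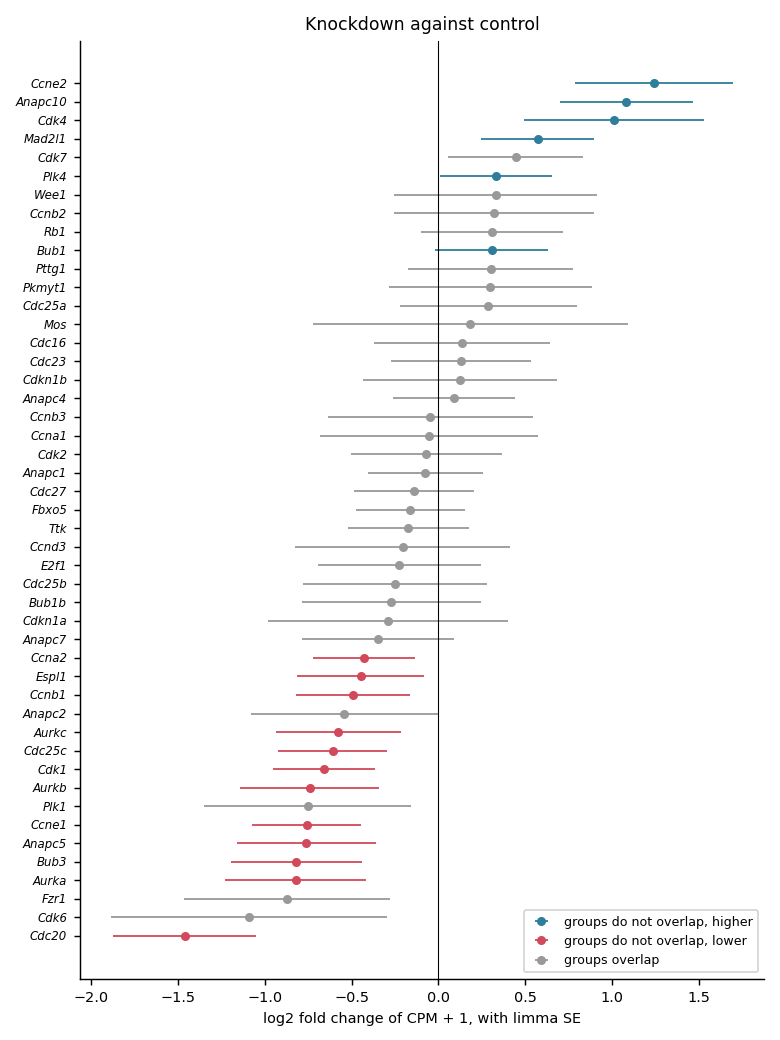
Log2 fold change of knockdown over control on the log2(CPM + 1) scale for 47 genes (horizontal axis; points with limma's SE as bars), ordered by value, with colour marking genes whose 2 groups do not overlap. The values run from -1.46 for Cdc20 to 1.24 for Ccne2, and no gene passed the adjusted threshold.

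In 12 of the 47 genes (25.5%, beside 27.3% of all genes) one knockdown library lay above and the other below both controls. Knockdown A was the higher in 8 of them (Ccnb2, Ccnd3, Bub1b, Cdc16, Pttg1, Cdkn1a, Cdkn1b and E2f1) and knockdown B in 4 (Ccna1, Wee1, Cdc27 and Rb1). Knockdown A was also the library with the higher oocyte marker sum. Gdf9, an oocyte growth factor of that list, was at 1005 CPM in knockdown A and 91.2 CPM in knockdown B. Its controls, at 345 and 283 CPM, lay between them, and Nlrp5 and Zar1 of the list were ordered likewise. Others of the list were not low in knockdown B. Bmp15 was at 1055 CPM there, above its controls at 845 and 728 CPM. Btg4 was at 2911 CPM there, between its controls at 2721 and 3198 CPM. The part of maternal RNA in these results was not tested.

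The promoters of genes with no overlap were set beside these values as a description. Of the 12 genes lower in both knockdown libraries, 9 had 10 promoters in the table, of which 8 held CCAAT (80%) and 5 held TTTGAA (50%). The 5 genes higher in both, of 6, had 6 promoters, of which 2 held CCAAT (33.3%) and 0 TTTGAA. Beside these, CCAAT lay in 54.5% of the 44 promoters of the whole list and in 33.9% of all promoters. TTTGAA lay in 18.2% and 15.99%. The lower genes with TTTGAA were Bub3, Cdc20, Cdk1 and Espl1. The groups hold few promoters, start sites of 1 gene share sequence, and no test was made.

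A wider list of 80 cell cycle genes, none of them among the 50, had 77 tested in the knockdown table, of which 40 had a log2 fold change above 0 and 37 below, with a median of 0.03 beside 0.02 over all genes. None passed limma (smallest adjusted p = 0.859), and 3 of the 77 had an unadjusted p under 0.05, beside 5.45% of all genes. In both knockdown libraries 17 lay above both controls (22.1%, beside 18.1% of all genes) and 16 below (20.8%, beside 18.4%). Ube2d1, a ubiquitin-conjugating enzyme that works with the APC/C, had the smallest p among the higher genes, at 0.160 and 0.482 CPM in control and 10.2 and 4.35 CPM in knockdown (2.56, SE 0.61, unadjusted p = 0.00278). Both controls were under 1 CPM, so Ube2d1 entered the test only through the knockdown libraries, the single such gene among the 40 above 0. It was followed by the checkpoint kinases Atm (91.2 and 91.2 CPM in control and 122 and 264 CPM in knockdown) and Chek1 (248 and 242 CPM in control and 462 and 329 CPM in knockdown). On the lower side stood Cdca8, borealin of the passenger complex that holds Aurkb, at 979 and 1116 CPM in control and 722 and 482 CPM in knockdown (-0.82, SE 0.33, unadjusted p = 0.0363). Ube2c, the conjugating enzyme that starts ubiquitin chains for the APC/C, was at 846 and 955 CPM in control and 570.5 and 549 CPM in knockdown (-0.68, SE 0.30, unadjusted p = 0.0496), and Ccnf, a cyclin that serves as a ubiquitin ligase subunit, at 86.2 and 95.8 CPM in control and 68.8 and 36.3 CPM in knockdown.

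The second comparison asked which cell cycle RNAs were recovered with His-tagged Eif1ad3 beyond the IgG background. Of the 50 genes 45 were tested, 35 with a log2 fold change above 0 (77.8%, beside 78.5% of all genes) and 10 below, and the median was 2.38 beside 2.01 over all genes tested. The order of these medians turned at a pseudocount of 0.1 (2.69 beside 3.66), with edgeR (0.59 beside 1.56), with DESeq2 (0.38 beside 1.30) and without IgG replicate A (1.46 beside 2.17). Under limma 11 rose (35.7% of all 11232 genes tested) and 1 fell (0.917%), so that 26.7% of the genes were called beside 36.6% of all genes. Of the 11 that rose, 8 (Ccnd1, Cdk4, Cdc25a, Cdc25c, Aurkb, Anapc4, Anapc10 and Fbxo5; 72.7%, beside 90.9% of all genes that rose) had both IgG libraries under 1 CPM. These 8 entered the test only through the His libraries, so the filter set their direction. The other 3 were Cdc25b, Cdkn1a and Rb1. Both His libraries were above both IgG libraries in 22 genes (54.1% of all genes) and below both in 4 (9.06%). The shares called, of these genes and of all genes, were not tested against each other, and their order moved with the filter: 24% beside 20.8% with no filter and 27.9% beside 27.0% at a mean of at least 5 CPM. With quantile normalization, under which the all-gene median went from 2.01 to -0.08, and with edgeR, 0 of the 45 passed (10 and 15 at an unadjusted p under 0.05), as did 0 of all 11232 genes, and DESeq2 called 18 (40%, beside 49.1% of all genes). Without His replicate A or without His replicate B 0 passed (0.0889% and 0.0888% of all genes), without IgG replicate A 35 did and without IgG replicate B 34 did (77.8% and 75.6%, beside 69.1% and 70.0% of all genes). In each of these 4 fits the lone library was assumed to vary as the other group does, and the fits without a His library tested 35 of the genes. Of the 45 log2 fold changes, 29 moved by over 1.5 times or changed sign in at least 1 of these fits, among them 0 of the 12 called genes; the 8 that entered through His had no value without a His library.

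The spread between the IgG libraries was uneven gene by gene. The median SD between replicates on the log2 scale was 0.93 in IgG and 0.22 in His for the 45 genes (0.69 and 0.35 over all genes). Of the 45, 6 had 0 reads in both IgG libraries (13.3%; 28.2% of all genes), 10 had 0 in exactly 1 (22.2%; 30.8%) and 29 had reads in both (64.4%; 41.0%). In 6 genes (13.3%, beside 13.4% of all genes) one IgG library held at least 50 CPM and the other at most 3 reads, an arrangement found in none of the 50 in His. Fzr1 showed it most, with 1625 and 0 CPM in IgG against 281 and 223 CPM in His, and Anapc2 likewise, with 665 and 0 against 57.3 and 48.4 CPM. Aurkc (0 and 419 CPM in IgG) and Anapc7 (0 and 339 CPM) had it in the opposite sense, present in replicate B and at 0 in replicate A. Oocyte markers summed to 10800 and 11077 CPM in His and 3626 and 4923 CPM in IgG (Zp1 at 0 in both IgG libraries), and 2-cell markers to 1167 and 1066 CPM in His and 181 and 640 CPM in IgG (3 of 10 at 0 in each IgG library). Later lineage markers summed to 354 and 393 CPM in His and to 857 and 39.1 CPM in IgG, sperm and spermatid markers to 1.08 and 7.20 and to 47.4 and 54.3 CPM, and cumulus and granulosa markers to 5.98 and 19.96 CPM in His with 9 of 9 at 0 in IgG; the part of these in the results was not tested.

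**Figure D3:**
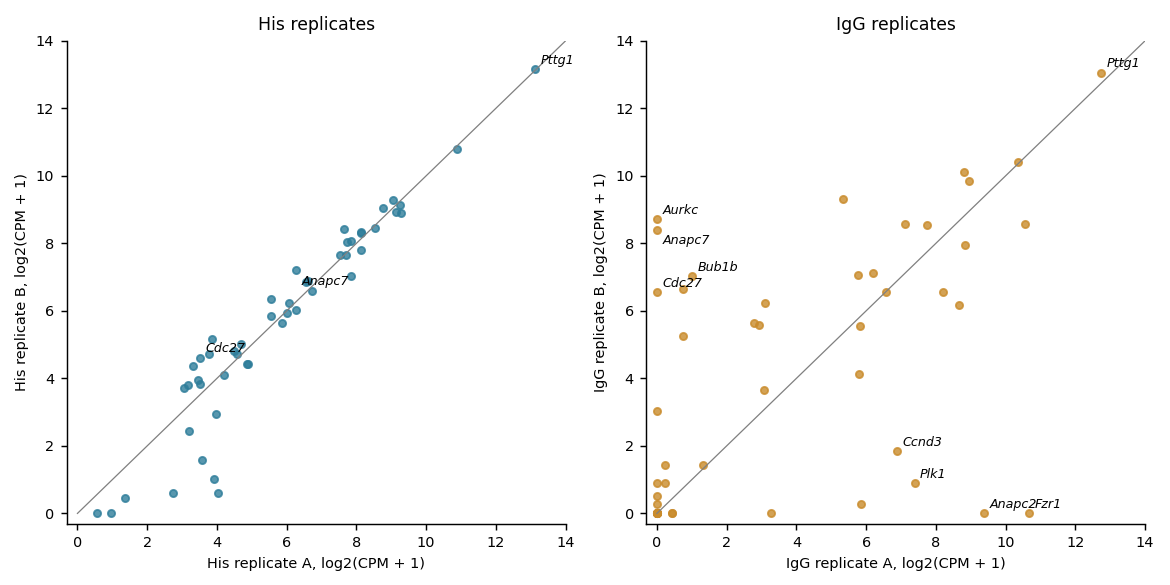
Replicate B (vertical axis) against replicate A (horizontal axis) as log2(CPM + 1) for the 50 genes, in the His libraries (left) and the IgG libraries (right); each point is a gene and the line marks equal values. The median ratio of the higher to the lower replicate, in genes with reads in both, is 1.26 in His and 3.28 in IgG. Sparse genes and some well-read ones lie off the line in His, such as Anapc7 (76.8 and 147 CPM) and Plk1 (199 and 341 CPM). Fzr1, Anapc2, Aurkc and Anapc7 lie on an axis in IgG, at 0 in 1 library.

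Of the 5 phosphatases and kinases that act on Cdk1, the 3 Cdc25 phosphatases rose in His, where 35.7% of all genes did. Cdc25a and Cdc25c are among those that entered the test only through His. Cdc25c was at 63.8 and 60.2 CPM in His and at 0.169 and 0.855 CPM in IgG, 1 and 4 reads (log2 fold change 5.42, SE 0.62, adjusted p = 0.0112). Cdc25a was at 22.96 and 25.1 CPM in His and rested on 2 IgG reads in all, a ratio of 127 with an exact 95% counting interval of 35.0 to 1055 (4.44, SE 0.42, adjusted p = 0.00997). Cdc25b had reads throughout, at 368 and 352 CPM in His and 55.4 and 46.2 CPM in IgG (2.81, SE 0.56, adjusted p = 0.0352, and 0.0905 after median rescaling or 0.179 with the replicate block). Their opponents overlapped between groups: Wee1 was at 17.5 and 16.2 CPM in His and 5.91 and 48.9 CPM in IgG, and Pkmyt1 at 279 and 322 CPM in His and 138 and 382 CPM in IgG.

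Of the mitotic cyclins and kinases, Ccnb1 was at 1904 and 1788 CPM in His and 446 and 1111 CPM in IgG (1.39, SE 0.51, adjusted p = 0.138) and Ccnb2 at 92.5 and 115 CPM in His and 7.43 and 11.5 CPM in IgG (3.34, SE 0.86, adjusted p = 0.0631). For both, His exceeded IgG in all 4 pairs of libraries without passing limma. Both passed with DESeq2 (adjusted p = 0.0296 for Ccnb1 and 6.66e-06 for Ccnb2). Ccnb2 also passed limma at a pseudocount of 5 (0.045) and without the variance trend (0.0218). Under the other alternatives that kept every library neither passed. Ccnb1 was at 0.73 and 2.05 on the log2 scale without IgG A and without IgG B. Ccnb1-ps was at 14.3 and 14.7 CPM in His and 1.18 and 5.98 CPM in IgG. Cdk1 overlapped, at 228 and 269.9 CPM in His between IgG values of 405 and 70.7 CPM, and Ccne1 (620.03 and 477 CPM in His, 496 and 921 CPM in IgG) and Cdk2 (105 and 95.9 CPM in His, 291 and 92.3 CPM in IgG) overlapped too. Cdk4 rose, at 12.8 and 25.5 CPM in His on 2 IgG reads, a ratio of 101 with an interval of 27.6 to 835 (adjusted p = 0.0135). Ccnd1, with 0 IgG reads, was at 14.7 and 6.69 CPM in His, at least 18.7-fold higher in mean and 11.7-fold from His B alone when IgG is set to 3 reads per library (adjusted p = 0.015; the fitted log2 value of a gene at 0 in IgG depends on the pseudocount). Cdk6, also with 0, was at 11.0 and 2.02 CPM in His and did not pass limma (adjusted p = 0.0922). It passed limma at a pseudocount of 0.1 (0.024) and passed with DESeq2 (0.00136), but under no other alternative that kept every library. The bound for Cdk6 rested on His A, at least 11.4-fold in mean and 3.52-fold from His B alone. Here and below, such bounds cover counting error only. For Fzr1, 0 reads in 1 IgG library stood beside 1625 CPM in the other.

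Aurkb, with 0 IgG reads, was at 8.97 and 19.8 CPM in His, at least 25.1-fold higher in mean and 15.6-fold from His A alone (3.85, SE 0.50, adjusted p = 0.0136), the single call among the 5 polo and aurora kinases (35.7% of all genes rose), and one that the filter let in only through His. Aurka was at 433 and 527 CPM in His and 39.2 and 632 CPM in IgG, and Plk1 at 199 and 341 CPM in His and 166 and 0.855 CPM in IgG. In each case 1 IgG library was close to His and the other far below, with SEs of 1.57 and 2.62 on the log2 scale, and Plk1 was at 7.14 and 0.64 without IgG A and without IgG B. Plk4 was lower in both His libraries (45.7 and 56.5 CPM in His, 93.5 and 92.98 CPM in IgG; -0.86, adjusted p = 0.504). None of the 5 spindle checkpoint genes passed limma (36.6% of all genes did), while with DESeq2 Bub1 passed as lower (-2.92, adjusted p = 0.0241). The median of the 5 genes was -0.02 beside 2.01 over all genes. It was the value of Ttk, which was at -2.98 without IgG A and 2.94 without IgG B. With 5 genes this group was not tested against all genes. In the wider list, 13 of 16 genes of the checkpoint, kinetochore and passenger complex were above 0, with a median of 1.12. Bub1 (8.25 and 4.42 CPM in His, 54.01 and 16.5 CPM in IgG; -2.13, SE 0.99) and Bub3 (185 and 201 CPM in His, 212 and 370.2 CPM in IgG; -0.54, SE 0.50) lay below IgG in both His libraries. Mad2l1 lay above (208 and 201 CPM in His, 7.59 and 73.7 CPM in IgG; 3.02, adjusted p = 0.216), while Bub1b (65.4 and 74.5 CPM in His, 1.01 and 129 CPM in IgG) and Ttk (10.5 and 13.3 CPM in His, 0.675 and 100.03 CPM in IgG) lay between the IgG libraries. Without IgG A and without IgG B the log2 fold changes were -1.30 and -2.96 for Bub1, -0.94 and -0.14 for Bub3 and 1.46 and 4.58 for Mad2l1, and after quantile normalization Bub3 was at -0.12.

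For the APC/C, 9 of 10 tested genes had a log2 fold change above 0 (78.5% of all genes) and 2 passed (35.7% of all genes rose). For Fzr1, Anapc2, Anapc7 and Cdc27 the mean CPM was nonetheless lower in His, and these 4 were below 0 with edgeR and with DESeq2, as was Cdk7, the kinase that acts on Cdk1, whose mean CPM was lower in His too. Anapc10 was at 27.98 and 20.6 CPM in His with 0 IgG reads (4.64, SE 0.40, adjusted p = 0.00997). Anapc4 was at 9.92 and 14.4 CPM in His with 0 IgG reads (3.70, SE 0.34, adjusted p = 0.00997). With IgG set to 3 reads per library they were at least 42.3-fold and 21.2-fold higher, which covers counting error only. The IgG libraries had 12574 and 12217 of 19390 genes at 0, and the His libraries 5146 and 5313. Cdc20 overlapped, at 607 and 559.8 CPM in His inside IgG values of 1512 and 379.6 CPM (-0.38, SE 0.78). Of the inhibitors, Fbxo5 rose from 0 and 4 IgG reads (0 and 0.855 CPM) to 28.6 and 20.6 CPM in His (4.21, SE 0.56, adjusted p = 0.0141). Mos was at 13.5 and 34.6 CPM in His and 0 and 7.27 CPM in IgG (adjusted p = 0.211). Espl1 was at 279 and 315 CPM in His and 53.5 and 133 CPM in IgG (adjusted p = 0.159). Both were higher in both His libraries without passing limma. With DESeq2 Espl1 passed (1.43, adjusted p = 0.0396) and Mos did not (0.326). Without IgG A and without IgG B the log2 fold changes were 1.46 and 4.51 for Mos, 1.15 and 2.45 for Espl1 and 0.085 and 0.39 for Pttg1. Pttg1 was at 8924 and 9076 CPM in His and 6880.3 and 8485 CPM in IgG (0.24, SE 0.12, adjusted p = 0.241), and its sign turned under median rescaling (-0.13).

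Of the 4 G1 inhibitors and E2F genes tested, 2 rose (35.7% of all genes) and 1 fell (0.917%). Cdkn1a was at 76.3 and 64.2 CPM in His and 0.169 and 1.71 CPM in IgG, 1 and 8 reads (5.32, SE 0.78, adjusted p = 0.0171, and 0.0526 with the replicate block), and Rb1 at 21.3 and 27.03 CPM in His and 1.52 and 1.71 CPM in IgG (3.26, SE 0.53, adjusted p = 0.0212). The call for Rb1 was lost with the replicate block (adjusted p = 0.0982) and at a pseudocount of 0.1 (0.0634), and its sign turned after quantile normalization (-0.29). E2f1 was the gene that fell, at 566 and 486 CPM in His and 1299 and 1365 CPM in IgG (-1.34, SE 0.15, adjusted p = 0.0107). Its IgG replicates lay close together, and its log2 fold change kept its sign under every alternative tried (-1.71 to -1.20). The adjusted p was 1.37e-07 with DESeq2. It missed the threshold without the variance trend (0.0767), with edgeR (0.0547) and with quantile normalization (0.151). The call was also lost without His A and without His B (-1.45 and -1.23). Cdkn1b, with 0 IgG reads, was at 14.2 and 1.01 CPM in His, uneven between replicates. It was at least 13.3-fold higher in mean but 1.76-fold from His B alone (adjusted p = 0.213 with limma and 0.00365 with DESeq2). With the 6 tested genes at 0 in both IgG libraries set to their bounds, the median over the 45 genes was 2.25.

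**Figure D4:**
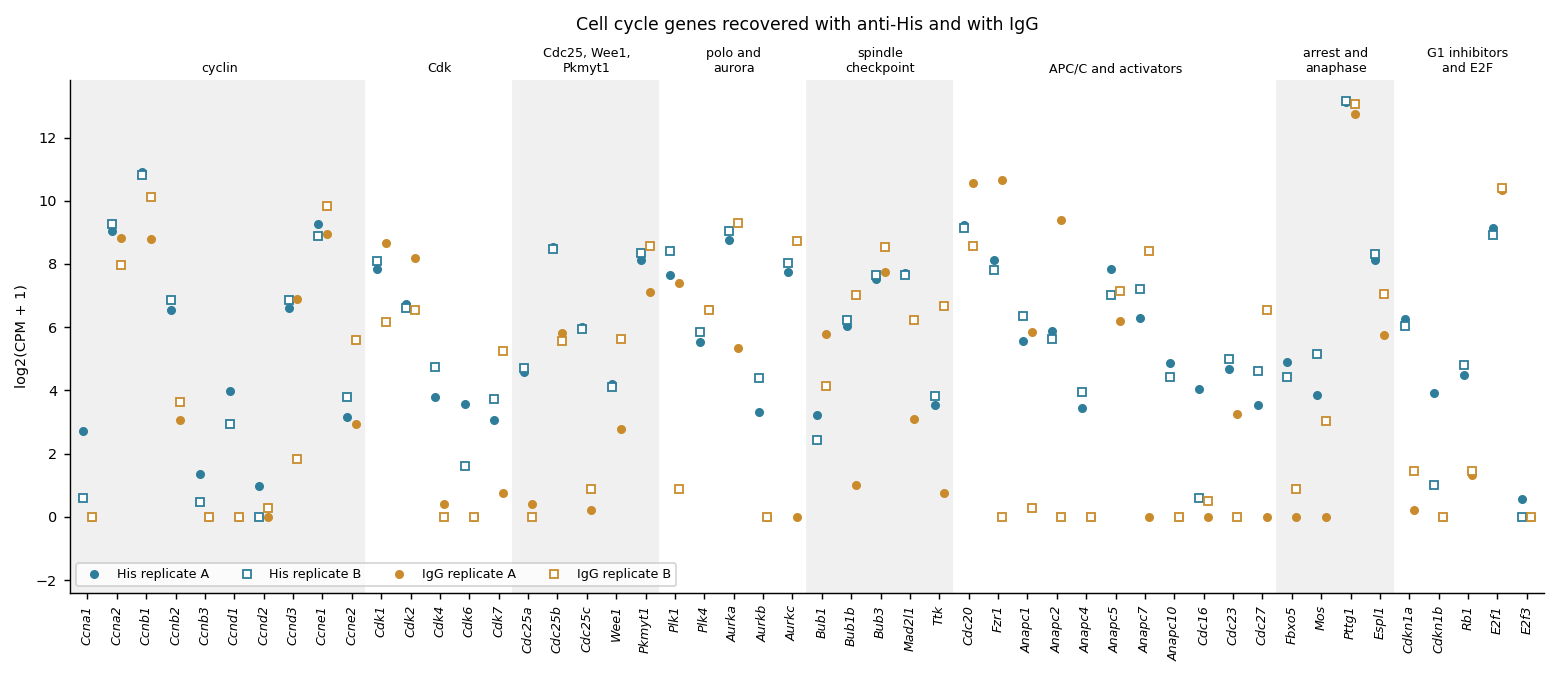
Level of the 50 genes in the 2 His (blue) and 2 IgG (orange) libraries as log2(CPM + 1) (vertical axis), by gene and role (horizontal axis); filled circles are replicate A and open squares replicate B. Cdc25a, Cdc25b and Cdc25c stand above IgG in both His libraries, E2f1 stands below, and the IgG replicates of Fzr1, Anapc2 and Aurkc are far apart.

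In the wider list of 80 genes, 75 were tested against IgG. Of these, 62 had a log2 fold change above 0 (82.7%, beside 78.5% of all genes) and 13 below, with a median of 1.51, beside 2.01 over all genes. Under limma 19 rose and 0 fell (25.3% called, beside 36.6% of all genes), and 25 of the 75 had an unadjusted p under 0.05, beside 44.6% of all genes. Of the 19, 18 (94.7%, beside 90.9% of all genes that rose) had both IgG libraries under 1 CPM and entered the test only through His. The smallest p belonged to Cdkn1c, a Cdk inhibitor at 9.56 and 8.97 CPM in His, Incenp, the passenger complex scaffold at 31.7 and 46.1 CPM, and Trp53, the tumour suppressor p53 at 137 and 183 CPM, each with 0 IgG reads in both libraries (adjusted p = 0.00997 for each). On the lower side Rbx1, the RING subunit of cullin ligases, was at 960.4 and 922 CPM in His and 1430.3 and 2236 CPM in IgG (-0.93, adjusted p = 0.0756). Cdca8 (363 and 308 CPM in His and 719.8 and 506 CPM in IgG) and Ppp2r2d (23.7 and 42.1 CPM in His and 86.6 and 70.5 CPM in IgG), a B55 subunit of the phosphatase that opposes Cdk1, followed without passing.

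The levels in His were last set beside those in control embryos. The 2 tables were normalized separately and come from different embryos and protocols, so these are values with no test. Over the 48 genes compared, the median log2 difference of His from control was 0.15, the same as the 0.15 over all 14371 genes, with 19 genes above both controls in both His libraries and 20 below both (36.6% and 38.5% of all genes). By role the medians ran from -1.90 for the spindle checkpoint to 2.58 for the G1 inhibitors and E2F genes, with 4 or 5 genes in each of these. Cdc27 had a mean of 417 CPM in control and 16.9 CPM in His, Bub1 126 and 6.34 CPM, Ttk 166 and 11.9 CPM, and Fbxo5 309 and 24.6 CPM. At the other end Pkmyt1 had 6.48 CPM in control and 300.2 CPM in His, Ccnd3 2.81 and 106 CPM, Cdc25b 19.7 and 359.99 CPM, and E2f1 36.02 and 526 CPM. A high level in His relative to control did not mean a gain over IgG: E2f1 was higher in IgG and Pkmyt1 overlapped with IgG.

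**Figure D5:**
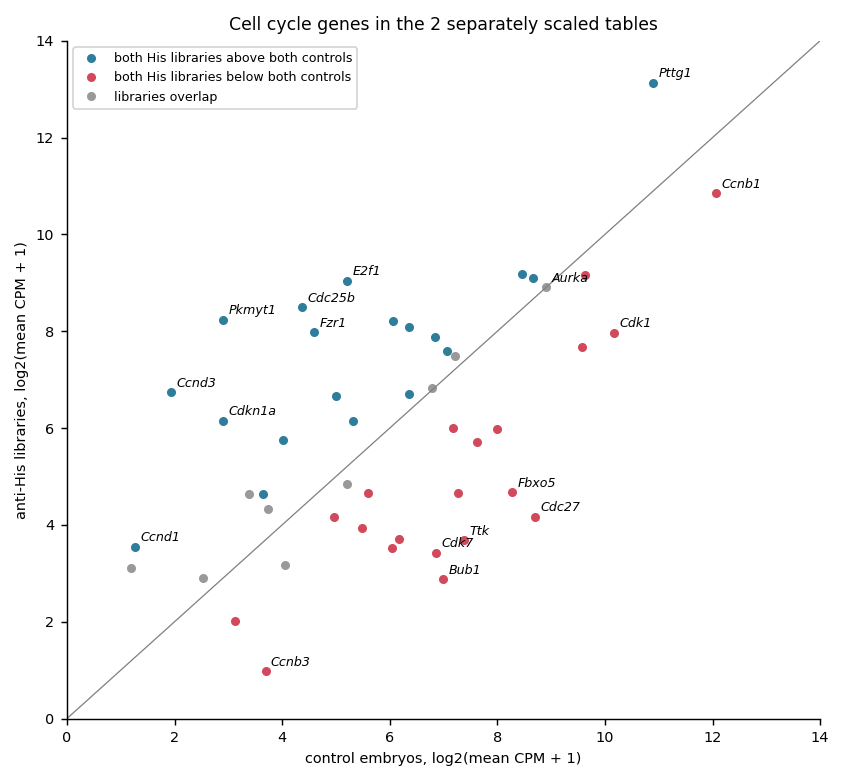
Mean level in the His libraries (vertical axis) against that in control embryos (horizontal axis), both as log2(mean CPM + 1), for 48 genes, in tables that were scaled separately; the line marks equal values and colour marks genes whose libraries do not overlap. Pkmyt1, Ccnd3, Cdc25b and E2f1 lie above the line and Cdc27, Bub1 and Ttk below it.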

How the data were processed

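RNA-seq libraries of mouse 2-cell embryos and of RNA recovered with beads were prepared by Smart-seq2 amplification followed by Nextera XT and sequenced as 150 bp pairs, per the labels' protocols. The deposited values are CPM, gene reads that the authors scaled to each library's total. Per the submitters' processing notes the tools and build were Trim Galore 0.6.7, FastQC, HISAT2 2.2.1, featureCounts 2.0.1, edgeR and GRCm39; how shared reads and strand were handled is not given in the sources used here. In every library 100% of the CPM values were whole multiples of 1 read (within 0.01 of a read), which gave read numbers and totals. PCR copies were not marked, so floors and intervals cover counting error only.

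Of 12 samples 8 were used; 4 value columns whose names do not decide between input and total RNA were not used, so the comparisons planned with those samples were not made. A gene entered a test when 2 or more of the compared libraries held 1 CPM or more. Differences on log2(CPM + 1) were fitted in R 4.3.3 by limma 3.58.1 (trend, two-sided, Benjamini-Hochberg over all genes tested, threshold 0.05); this scale understates the change of low genes. Groups have 2 replicates and SEs are limma's. Alternatives were pseudocounts of 0.1 and 5, no filter and a mean of at least 5 CPM, median rescaling, quantile normalization, no trend, a replicate block, each library left out, and edgeR 4.0.16 and DESeq2 1.42.0 on recovered reads. The 50 genes, the wider list of 80, the marker lists and the rule for named genes were chosen with earlier results of these data known. Values in every library were given for 12 core genes and for up to 8 genes in each direction with the largest change and no overlap between groups (6 and 8 higher, 8 and 4 lower, in knockdown and in His), and other genes of the 50 were added to these; of the wider list, the 3 genes in each direction with the smallest p are named. Promoter sequences are RefSeq's, from GRCm38.p6, a different build from the files'.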

Additional observations from a re-analysis of the deposited data

How the results depend on the processing

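In the knockdown, the count of 0 of 47 genes was also 0 under the 11 alternatives that kept every library, and 0 to 16 when a library was left out; the median of -0.16 ranged from -0.43 (without knockdown replicate A) to 0.0201 (without knockdown replicate B) and stayed below 0 under the 11. With the letters fitted as a replicate block, the smallest adjusted p was 0.246, 0.19 with median rescaling as well; deviations of same-letter libraries correlated at 0.146 in the knockdown table and -0.0138 in the immunoprecipitation table, and the letters are not stated to mark shared handling. For His against IgG, the count of 12 was 9 with the block (and with the block and median rescaling), 0 with quantile normalization and with edgeR, and 0 to 35 with a library left out. The His median of 2.38 was 2.69 and 1.43 at pseudocounts of 0.1 and 5, 1.93 with no filter, 2.13 at a mean of at least 5 CPM, 1.98 after median rescaling (also with the block), 0.69 after quantile normalization, 0.59 with edgeR, 0.38 with DESeq2 and 1.18 to 2.47 with a library left out. The genes that lost the call with the block were Cdc25b, Cdkn1a and Rb1. With every library kept, 13 of 45 genes changed sign in His against IgG (with DESeq2 Anapc2 -3.19, Anapc7 -0.71, Bub1b -0.0052, Cdc27 -1.55, Cdk1 -0.42, Cdk7 -1.07, Fzr1 -2.23, Pkmyt1 -0.025, Pttg1 -0.088; with edgeR Anapc2 -2.90, Anapc7 -0.50, Cdc27 -1.35, Cdk1 -0.13, Cdk7 -0.86, Fzr1 -1.93; with quantile normalization Cdc27 -1.55, Cdk6 -0.057, Cdk7 -2.29, Cdkn1b -0.11, Rb1 -0.29; with median rescaling, with or without the block Pttg1 -0.13; with a pseudocount of 5 Anapc2 -0.0053, Cdc27 -0.072, Cdk7 -0.088; with a pseudocount of 0.1 Ttk 0.44) and 1 of 47 in knockdown against control (with DESeq2 Ccna1 0.20; with edgeR Ccna1 0.18). With a library left out, 17 of 45 changed sign in His against IgG, with ranges of -3.63 to 5.75 for Anapc2, -1.66 to 6.74 for Anapc7, -0.40 to 3.58 for Aurka, -0.83 to 7.88 for Aurkc, -0.88 to 5.14 for Bub1b, -0.15 to 4.90 for Ccnd3, -0.76 to 0.13 for Ccne1, -2.11 to 0.56 for Ccne2, -1.37 to 0.62 for Cdc20, -2.48 to 4.07 for Cdc27, -0.70 to 1.80 for Cdk1, -1.53 to 0.12 for Cdk2, -1.86 to 2.65 for Cdk7, -2.69 to 7.97 for Fzr1, -0.35 to 1.12 for Pkmyt1, -2.98 to 2.94 for Ttk and -1.49 to 1.37 for Wee1. In knockdown against control 23 of 47 did, with ranges of -0.18 to 0.033 for Anapc1, -0.0091 to 0.19 for Anapc4, -0.84 to 0.15 for Anapc7, -0.94 to 0.39 for Bub1b, -0.75 to 0.64 for Ccna1, -0.60 to 1.25 for Ccnb2, -0.65 to 0.56 for Ccnb3, -0.82 to 0.41 for Ccnd3, -0.28 to 0.55 for Cdc16, -0.084 to 0.35 for Cdc23, -0.67 to 0.17 for Cdc25b, -0.49 to 0.21 for Cdc27, -0.31 to 0.17 for Cdk2, -1.10 to 0.52 for Cdkn1a, -0.24 to 0.48 for Cdkn1b, -0.69 to 0.24 for E2f1, -0.97 to 1.34 for Mos, -0.13 to 0.73 for Pkmyt1, -1.68 to 0.17 for Plk1, -0.41 to 1.01 for Pttg1, -0.20 to 0.82 for Rb1, -0.44 to 0.095 for Ttk and -0.54 to 1.20 for Wee1. The cause of these differences was not tested. Planned comparisons of His and IgG with input, and of input with total RNA, were not run. Depth limits the genes with few IgG reads: fold changes of genes at 0 IgG reads are bounds for counting error only, and those on 2 IgG reads have wide counting intervals.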
